A study of Homo sapiens with 10 samples.

Results

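The genes described here are a set of 44 that defend cells against oxidants: the transcription factor NFE2L2 (NRF2) with its regulators and targets, the thioredoxin, peroxiredoxin, superoxide dismutase and glutathione systems, and the genes of haem breakdown and iron storage. They were taken from a list of names drawn up with earlier results of these data known, and were looked up by Ensembl identifier among the 61587 rows of the count table. A row was paired with 43 of the 44 names. SOD2, the manganese superoxide dismutase of mitochondria, had no row paired with it in the tables of names used and was not analysed here. The table may hold it under an earlier identifier, which those tables do not pair with a symbol, so the planned comparison of NRF2 targets with SOD2 was not made. The cells were RPTEC/TERT1, human renal proximal tubular epithelial cells immortalised with telomerase, and both groups came from this single line. Irradiated samples (n = 5) received 10 Gy of gamma rays from a caesium source and control samples (n = 5) were mock irradiated, that is, carried to the irradiator without exposure. RNA was collected on day 7 after exposure and sequenced in bulk after poly-A enrichment. All cells grew in the same medium, which held ascorbic acid, hydrocortisone, transferrin and selenium, agents that bear on redox and iron genes. Whether these agents acted alike in both groups was not tested.

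NRF2 is held in the cytoplasm and sent for degradation by KEAP1, whose reactive cysteines are modified by oxidants and electrophiles. NRF2 then escapes, enters the nucleus, pairs with small MAF proteins and binds antioxidant response elements next to genes for quinone reductases, glutathione synthesis, the thioredoxin system and ferritin. Much of this control acts on the protein, so that NFE2L2 mRNA need not move when its targets do. Glutathione and thioredoxin are parallel systems that pass electrons from NADPH to peroxides, and ferritin stores iron in a form that does not react with peroxide. Proximal tubule cells are rich in mitochondria and are a classical site of oxidant injury in the kidney.

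Total counts per sample ran from 66269311 to 131555873, and levels are given as CPM, the count of a gene scaled to library size after TMM normalisation. The summed level of 5 epithelial markers was 2077 to 2477 CPM in control and 2109.6 to 2757 CPM in irradiated samples. Of 6 proximal tubule markers, 3 passed the limit of 200 counts over the 10 samples, ANPEP with 268713 counts, CUBN with 4449 and SLC5A2 with 253, while SLC34A1 had 86 counts, LRP2 17 counts and SLC22A6 1 count. Sums for fibroblast markers were 15.4 to 23.4 CPM in control and 27.1 to 39.3 CPM in irradiated samples. Those for endothelial markers were 1.29 to 2.40 and 4.15 to 6.07 CPM, and those for leucocyte markers 0.487 to 0.734 and 0.784 to 1.24 CPM. The limit of 200 counts was passed by 1 of 5 fibroblast, 3 of 4 endothelial and 2 of 5 leucocyte markers, and none of these markers was at 0 in every sample. The part of these low sums in the results below was not tested. In bulk RNA, fewer cells of a kind and less RNA per cell cannot be told apart.

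The set did not move as a block. The quinone reductase NQO1, the aldo-keto reductases AKR1C1, AKR1C2 and AKR1C3, ferritin light chain, HMOX1 and BLVRB fell, thioredoxin reductase 1 and glutathione peroxidase 1 rose, and the regulators NFE2L2 and KEAP1 did not pass the test. All 43 genes passed the limit of 200 counts over the 10 samples, with totals between 402 and 1838502 counts. Of them, 11 were higher and 17 lower in irradiated samples (edgeR quasi-likelihood test paired by replicate number, Benjamini-Hochberg adjusted p under 0.05 over 19006 genes), which makes 65.1% of the set against 46.6% of all genes tested. By direction, 25.6% of the set were higher against 23.9% of all genes, and 39.5% were lower against 22.7%. The 5 irradiated values lay wholly above the 5 control values for 3 genes and wholly below them for 13, where 14.6% and 12.0% of all genes did so. None was more than 2-fold higher and 4 were more than 2-fold lower, against 5.26% and 4.06% of all genes. The median log2 fold change was -0.07 in the set and -0.01 over all genes. The count of higher genes was less firm than that of lower genes. It was 6 without the replicate block, 6 when scaled by library size only (beside 22 lower), and 7, 6 and 6 without replicate 1, 4 or 5, while the count of lower genes stayed between 15 and 22.

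**Figure D1:**
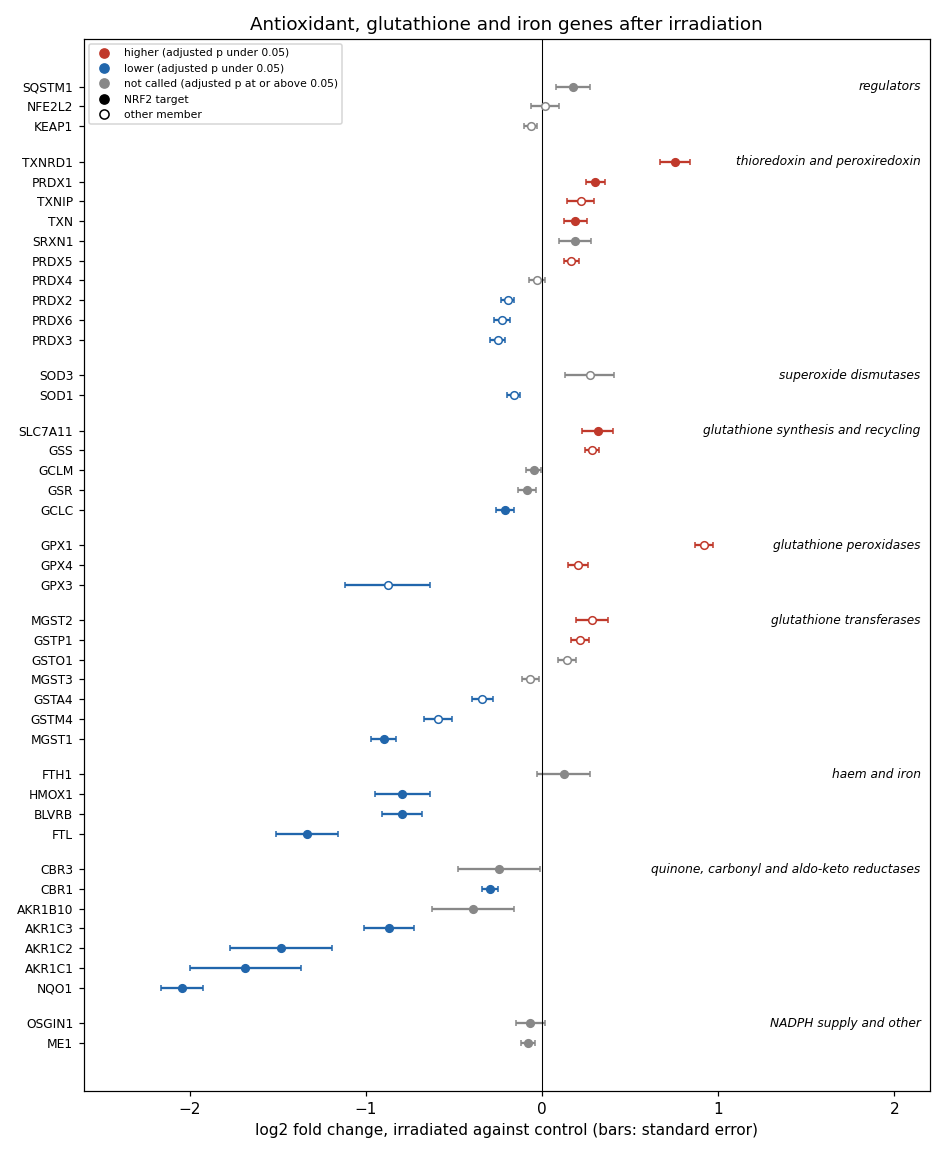
Log2 fold change of 43 genes in irradiated against control samples (x axis, bars show the standard error, n = 5 pairs), grouped by role. Red points passed the test as higher, blue as lower and grey did not pass. Filled points are NRF2 targets and open points other genes. The lowest values are those of NQO1 (-2.04) and AKR1C1 (-1.68), the highest those of GPX1 (0.92) and TXNRD1 (0.76).

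Among the regulators, mRNA differences were small and none of the 3 genes passed the test. NFE2L2 (chr2:177218667-177392756, minus strand, GRCh38) encodes NRF2 itself. Its levels were 93.3, 90.4, 128, 98.4 and 99.1 CPM in control samples 1 to 5 and 93.2, 109, 101, 105 and 102 CPM in irradiated samples 1 to 5 (log2 fold change 0.02 ± 0.08 (SE), edgeR adjusted p = 0.885). The groups overlapped, and control 3 lay apart from the other 4 controls. Its small difference changed sign under other scalings, and 24.8% of its exon bases lie under exons of the opposite strand, where reads were not assigned. KEAP1 (chr19:10486125-10503558, minus strand), the adaptor that marks NRF2 for degradation, was at 60.1, 70.7, 63.4, 67.1 and 69.2 CPM in control and 56.5, 67.4, 63.5, 64.6 and 64.0 CPM in irradiated samples (log2 fold change -0.06 ± 0.04 (SE), edgeR adjusted p = 0.200). When scaled by library size only it passed as lower (log2 fold change -0.14, adjusted p = 0.0160). SQSTM1, the autophagy receptor p62 that binds KEAP1 and draws it away from NRF2, was at 242, 187, 339, 197 and 209 CPM in control and 268, 226, 279, 267 and 257 CPM in irradiated samples (log2 fold change 0.18 ± 0.10 (SE), edgeR adjusted p = 0.175). SQSTM1 was lower in pair 3 and higher in the other 4 pairs, and without replicate 3 it passed as higher (log2 fold change 0.30, adjusted p = 0.00525). Exons of the opposite strand cover 22.4% of SQSTM1 exon bases.

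The sharpest falls were among the reductases of quinones, carbonyls and steroids. Of these, 5 of 7 were lower (71.4%) and none higher, against 22.7% and 23.9% of all genes. NQO1 (chr16:69706996-69726668, minus strand) reduces quinones without forming radical intermediates and is a classical NRF2 target. It was at 413, 412, 317, 434 and 467 CPM in control samples 1 to 5 and 113, 142, 64.1, 85.2 and 105 CPM in irradiated samples 1 to 5. The highest irradiated value was under the lowest control value by more than 2-fold, and the mean fold decrease was 4.12 (log2 fold change -2.04 ± 0.12 (SE), edgeR adjusted p = 2.97e-05). AKR1C1 (chr10:4963253-4983283, plus strand), an aldo-keto reductase that inactivates progesterone and reduces lipid aldehydes, was at 66.7, 93.8, 163, 67.6 and 70.9 CPM in control and 17.8, 59.9, 18.3, 26.2 and 26.3 CPM in irradiated samples (log2 fold change -1.68 ± 0.31 (SE), edgeR adjusted p = 0.00364). Control 3 was the highest of all 10 and irradiated 2 stood above the other irradiated samples, yet the groups did not overlap. AKR1C2 (chr10:4987775-5018031, minus strand), which inactivates dihydrotestosterone, was at 33.6, 43.5, 94.6, 30.7 and 31.4 CPM in control and 11.3, 28.9, 12.7, 13.8 and 13.0 CPM in irradiated samples (log2 fold change -1.48 ± 0.29 (SE), edgeR adjusted p = 0.00445). The same 2 samples stood out in it. AKR1C3, which makes testosterone and prostaglandin F, averaged 107 ± 22.5 CPM in control against 58.7 ± 11.9 CPM in irradiated samples (SD, n = 5) and fell too (log2 fold change -0.87 ± 0.14 (SE), edgeR adjusted p = 0.00203). CBR1, a carbonyl reductase of prostaglandins and quinones, fell by less (log2 fold change -0.30 ± 0.04 (SE), edgeR adjusted p = 0.00122). AKR1B10, a retinal reductase (log2 fold change -0.39 ± 0.23 (SE), edgeR adjusted p = 0.200), and CBR3 (log2 fold change -0.24 ± 0.23 (SE), edgeR adjusted p = 0.420) did not pass the test at mean levels under 1 CPM. Exons of the opposite strand cover 71.1% of CBR3 exon bases, 19.4% of those of NQO1 and 18.9% of those of CBR1. Reads there were not assigned, so these levels may be too low.

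The 3 AKR1C genes lie next to each other on chromosome 10 and are near copies, which is why the start of their coding sequences is shown. Over 969 coding bases AKR1C1 and AKR1C2 differ at 19 (98.0% identity), AKR1C1 and AKR1C3 at 83 (91.4%) and AKR1C2 and AKR1C3 at 87 (91.0%). The first 60 coding bases follow, 5′ to 3′, from the GENCODE transcripts of GRCh38, with capitals at the positions where the 3 are not all alike.
AKR1C1: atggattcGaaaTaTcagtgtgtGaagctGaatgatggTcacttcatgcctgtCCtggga
AKR1C2: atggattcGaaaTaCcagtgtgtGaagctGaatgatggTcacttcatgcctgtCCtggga
AKR1C3: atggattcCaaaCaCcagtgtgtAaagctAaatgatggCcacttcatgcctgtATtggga
Of the 150-base windows of the transcript, 17.2% in AKR1C2, 7.91% in AKR1C1 and 2.12% in AKR1C3 also occur in another gene. A read from such a window cannot by itself be placed in 1 gene. Reads were paired, and how often the mate placed them was not counted. These shares are over whole transcripts, of 6543 bases in AKR1C1 and 3215 in AKR1C2, and the share within the coding bases was not counted. The separate values of AKR1C1 and AKR1C2 are uncertain, to an extent that the shares may understate.

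**Figure D2:**
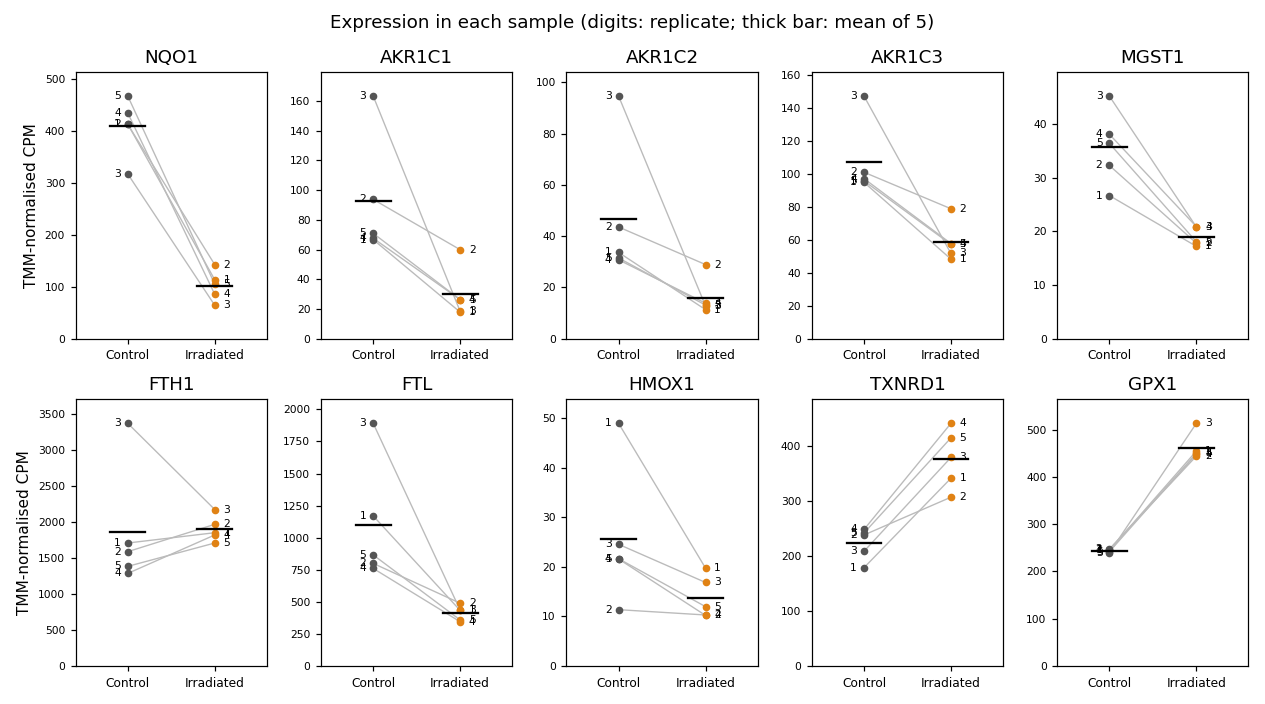
TMM-normalised CPM of 10 genes (y axes start at 0) in the 5 control and 5 irradiated samples. Points are samples, digits give the replicate, lines join samples with the same number and the thick bar is the mean. The groups do not overlap for NQO1, AKR1C1, AKR1C3, FTL, TXNRD1 or GPX1, among others, and control 3 is high in AKR1C1, AKR1C2, AKR1C3, FTH1 and FTL.

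Of the 4 genes of haem and iron in the set, 3 fell and none rose, where 22.7% of all genes fell. FTL (chr19:48965309-48966879, plus strand) encodes the light chain of ferritin, which helps iron to form a mineral core inside the shell. It was at 1169, 799, 1891, 759.7 and 865 CPM in control samples 1 to 5 and 432, 488, 435, 344 and 358 CPM in irradiated samples 1 to 5 (log2 fold change -1.34 ± 0.18 (SE), edgeR adjusted p = 7.19e-04). The groups did not overlap. BLVRB, a reductase of biliverdin and flavins, was at 35.5, 32.7, 52.3, 32.9 and 33.6 CPM in control and 19.1, 23.1, 21.1, 21.3 and 21.5 CPM in irradiated samples (log2 fold change -0.80 ± 0.11 (SE), edgeR adjusted p = 9.81e-04), again without overlap. HMOX1 (chr22:35380361-35394214, plus strand), the inducible haem oxygenase that frees iron, carbon monoxide and biliverdin from haem, was at 48.9, 11.3, 24.5, 21.6 and 21.6 CPM in control and 19.7, 10.3, 16.8, 10.2 and 11.9 CPM in irradiated samples (log2 fold change -0.79 ± 0.16 (SE), edgeR adjusted p = 0.00461). It was lower in all 5 pairs, but the groups overlapped, and without the replicate block it did not pass the test (log2 fold change -0.89, adjusted p = 0.0537). A second haem oxygenase, HMOX2, and a second biliverdin reductase, BLVRA, lie outside the set, were looked at after their values were known, and went the other way. HMOX2, the constitutive haem oxygenase, averaged 40.8 ± 3.68 CPM in control against 59.9 ± 5.70 CPM in irradiated samples (SD, n = 5) and rose in all 5 pairs without overlap (log2 fold change 0.56 ± 0.08 (SE), edgeR adjusted p = 0.00130). BLVRA, the main biliverdin reductase, passed as higher in the paired fit (log2 fold change 0.17 ± 0.05 (SE), edgeR adjusted p = 0.0303) but not without the replicate block (log2 fold change 0.16, adjusted p = 0.131) nor without replicate 1, 2, 4 or 5 (adjusted p = 0.0593, 0.0686, 0.112 and 0.0876).

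FTH1 (chr11:61959718-61967634, minus strand), the heavy chain of ferritin that oxidises iron before storage, did not follow the light chain. FTH1 was at 1709, 1588, 3374, 1286 and 1384 CPM in control and 1852, 1969, 2175, 1821 and 1709 CPM in irradiated samples (log2 fold change 0.12 ± 0.15 (SE), edgeR adjusted p = 0.541). Control 3 was high, and without replicate 3 FTH1 passed as higher (log2 fold change 0.31, adjusted p = 0.0119). The FTH1 to FTL ratio of CPM was 1.46 to 1.99 in control and 4.03 to 5.30 in irradiated samples. On the log2 scale it averaged 0.76 ± 0.17 (SD, n = 5) in controls and 2.22 ± 0.16 after irradiation, a difference of 1.46 (two-sided exact permutation test, p = 0.00794, the smallest that 252 splits allow). That test ignores the pairs, and a sign-flip test of the 5 pairs gave p = 0.0625, which is the smallest it can give and does not pass the threshold (exact, two-sided). The ratio rose in all 5 pairs, control 3 included, where both chains were high. Exons of the opposite strand cover 63.2% of FTH1 exon bases, and 44.2% of its 150-base windows occur in other genes, read on either strand. These 2 shares may count the same bases. The level of FTH1 may be too low, and the ratio itself is not one of molecules.

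**Figure D3:**
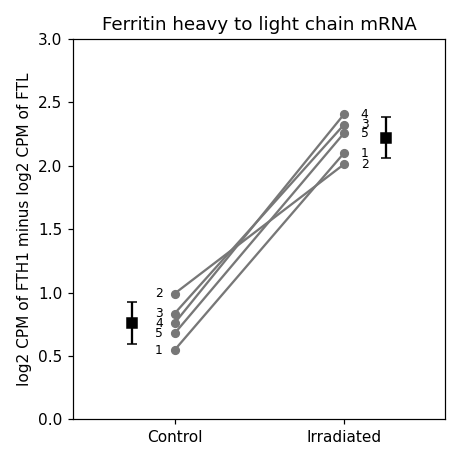
Log2 CPM of FTH1 minus log2 CPM of FTL (y axis) in each sample, with lines joining samples of the same replicate number and squares showing the mean ± SD of 5. Control values lie between 0.55 and 0.99 and irradiated values between 2.01 and 2.405.

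In the thioredoxin system 5 of 10 genes rose and 3 fell. TXNRD1 (chr12:104215779-104350307, plus strand) is the cytosolic selenoenzyme that reduces thioredoxin with NADPH. It was at 179, 238, 209, 249 and 242 CPM in control samples 1 to 5 and 342, 307, 379.8, 442 and 416 CPM in irradiated samples 1 to 5 (log2 fold change 0.76 ± 0.08 (SE), edgeR adjusted p = 3.09e-04). The groups did not overlap, which made it the one NRF2 target of the set with wholly higher irradiated values. Exons of the opposite strand cover 29.8% of the exon bases of PRDX1. PRDX1, a cytosolic peroxidase that thioredoxin recharges, was at 356, 351, 373, 419 and 407 CPM in control and 458, 413, 511, 504 and 468 CPM in irradiated samples (log2 fold change 0.30 ± 0.05 (SE), edgeR adjusted p = 0.00252). PRDX3, its counterpart in mitochondria, was at 201, 210.2, 231, 215 and 223 CPM in control and 184, 173, 189, 179 and 181 CPM in irradiated samples (log2 fold change -0.25 ± 0.04 (SE), edgeR adjusted p = 0.00248). The other changes were small. PRDX2 (log2 fold change -0.20) and PRDX6 (-0.23), both cytosolic, fell, while thioredoxin itself (TXN, 0.19), its inhibitor TXNIP (0.22) and PRDX5 of mitochondria and peroxisomes (0.17) rose. TXN, TXNIP, PRDX2 and PRDX5 did not pass without the replicate block (adjusted p = 0.197, 0.0640, 0.0514 and 0.292 in edgeR). With 1 replicate left out, TXN did not pass without replicate 1, 4 or 5 (edgeR adjusted p = 0.0929, 0.120 and 0.0949), TXNIP without replicate 2, 3, 4 or 5 (0.100, 0.0845, 0.0698 and 0.0735) and PRDX5 without replicate 1 or 4 (0.0520 and 0.0777). PRDX4 of the endoplasmic reticulum (log2 fold change -0.03) and SRXN1, which repairs overoxidised peroxiredoxins (0.19), did not pass the test. Of the SRXN1 windows, 90.2% also occur in another annotated gene, and reads from them may not have been assigned.

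Genes of glutathione synthesis and recycling moved little, with 2 of 5 higher (40.0%) and 1 lower (20.0%), against 23.9% and 22.7% of all genes. GSS, which adds glycine in the last step of glutathione synthesis, was at 90.5, 95.7, 91.4, 88.6 and 92.4 CPM in control and 113, 111, 119, 105 and 109.8 CPM in irradiated samples (log2 fold change 0.28 ± 0.04 (SE), edgeR adjusted p = 0.00121), and the groups did not overlap. GCLC, the catalytic subunit of the rate-limiting ligase, was at 35.4, 33.1, 39.0, 34.0 and 34.0 CPM in control and 31.2, 30.6, 29.7, 29.9 and 30.1 CPM in irradiated samples (log2 fold change -0.21 ± 0.05 (SE), edgeR adjusted p = 0.0123), lower without overlap. SLC7A11, the cystine importer, rose in 4 of 5 pairs (log2 fold change 0.32 ± 0.09 (SE), edgeR adjusted p = 0.0196) but did not pass without the replicate block (log2 fold change 0.30, adjusted p = 0.175). Nor did it pass without replicate 1, 4 or 5 (edgeR adjusted p = 0.0680, 0.0766 and 0.0713). GCLM, the modifier subunit of the ligase (log2 fold change -0.05 ± 0.04 (SE), edgeR adjusted p = 0.409), and GSR, which reduces oxidised glutathione (log2 fold change -0.09 ± 0.05 (SE), edgeR adjusted p = 0.193), did not pass.

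The 3 glutathione peroxidases moved in different directions. GPX1 (chr3:49357174-49358605, minus strand), the selenoprotein that clears hydrogen peroxide in the cytosol and mitochondria, was at 245, 248, 239, 246 and 242 CPM in control samples 1 to 5 and 455, 445, 514, 449 and 450.0 CPM in irradiated samples 1 to 5. The controls lay close together and every irradiated value was above them, a 1.89-fold rise (log2 fold change 0.92 ± 0.05 (SE), edgeR adjusted p = 2.69e-05). Of the GPX1 windows, 56.7% also occur in another annotated gene, and reads from them may not have been assigned. GPX3, a secreted peroxidase for which the proximal tubule is the main source, was at 36.1, 37.7, 96.9, 27.7 and 32.1 CPM in control and 28.5, 25.6, 21.8, 17.7 and 19.3 CPM in irradiated samples (log2 fold change -0.88 ± 0.24 (SE), edgeR adjusted p = 0.0197). Its groups overlapped, with control 3 far above the rest, and without replicate 5 it did not pass (log2 fold change -0.91, adjusted p = 0.0543). GPX4, which reduces lipid peroxides in membranes and so guards against ferroptosis, rose in 4 of 5 pairs (log2 fold change 0.20 ± 0.06 (SE), edgeR adjusted p = 0.0217) and did not pass without the replicate block (log2 fold change 0.19, adjusted p = 0.173), nor without replicate 4 or 5 (adjusted p = 0.0852 and 0.0677).

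Among 7 glutathione transferases 2 rose (28.6%) and 3 fell (42.9%), where 23.9% of all genes rose and 22.7% fell. MGST1 (chr12:16347142-16609259, plus strand), a microsomal transferase that also reduces lipid peroxides, was at 26.7, 32.3, 45.3, 38.1 and 36.4 CPM in control and 17.2, 17.8, 20.8, 20.9 and 18.1 CPM in irradiated samples (log2 fold change -0.90 ± 0.07 (SE), edgeR adjusted p = 7.94e-05). GSTM4, a cytosolic transferase of the mu class, was at 19.4, 20.0, 26.8, 18.2 and 17.9 CPM in control and 13.7, 15.2, 14.2, 12.2 and 12.1 CPM in irradiated samples (log2 fold change -0.59 ± 0.08 (SE), edgeR adjusted p = 7.70e-04). GSTA4, which conjugates the lipid aldehyde 4-hydroxynonenal, was at 15.5, 13.0, 13.7, 12.7 and 12.8 CPM in control and 11.0, 10.8, 11.1, 9.78 and 10.8 CPM in irradiated samples (log2 fold change -0.34 ± 0.06 (SE), edgeR adjusted p = 0.00332). Each of these 3 fell without overlap of the groups. MGST2, which can make leukotriene C4, rose (log2 fold change 0.28 ± 0.09 (SE), edgeR adjusted p = 0.0350), as did GSTP1, a cytosolic transferase of the pi class (log2 fold change 0.22 ± 0.05 (SE), edgeR adjusted p = 0.00891). MGST2 did not pass without replicate 1, 2 or 5 (edgeR adjusted p = 0.0785, 0.0673 and 0.0540). GSTO1 (log2 fold change 0.14 ± 0.05 (SE), edgeR adjusted p = 0.0543) and MGST3 (log2 fold change -0.07 ± 0.05 (SE), edgeR adjusted p = 0.300) did not pass, although GSTO1 did without replicate 2 (adjusted p = 0.0496).

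SOD1, the copper-zinc dismutase of the cytosol, was at 156, 140.3, 159.7, 157 and 161 CPM in control and 141, 127, 143, 143 and 139 CPM in irradiated samples (log2 fold change -0.16 ± 0.04 (SE), edgeR adjusted p = 0.00979). It was lower in all 5 pairs with overlapping groups, and without replicate 5 it did not pass (log2 fold change -0.14, adjusted p = 0.0564). SOD3, the secreted dismutase, averaged 534 ± 75.2 CPM in control against 661 ± 190.2 CPM in irradiated samples (SD, n = 5) and did not pass (log2 fold change 0.27 ± 0.14 (SE), edgeR adjusted p = 0.147). ME1, the cytosolic malic enzyme that supplies NADPH, was at 38.4, 31.7, 36.0, 36.6 and 37.1 CPM in control and 36.6, 30.3, 33.0, 35.7 and 34.8 CPM in irradiated samples (log2 fold change -0.08 ± 0.04 (SE), edgeR adjusted p = 0.140). OSGIN1, a growth inhibitor induced by oxidised lipids, averaged 12.3 ± 2.55 CPM in control against 11.6 ± 0.827 CPM in irradiated samples (SD, n = 5), with a log2 fold change -0.07 ± 0.08 (SE), edgeR adjusted p = 0.535. Neither ME1 nor OSGIN1 passed the test.

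The NRF2 targets were set beside the other genes of the set. Which genes count as targets came from a list drawn up with earlier results of these data known. The counts that follow depend on that labelling and are no independent evidence about NRF2. Of 23 NRF2 targets 4 were higher, 10 lower and 9 did not pass, with a median log2 fold change of -0.21. Of the 20 others 7 were higher, 7 lower and 6 did not pass, with a median of -0.01. The shares higher were 17.4% and 35.0%, against 23.9% of all genes. The shares lower were 43.5% and 35.0%, against the 22.7% of all genes given above, and the difference between the 2 groups was not tested. Within the NRF2 targets the values ran from -2.04 for NQO1 to 0.76 for TXNRD1, so that targets of the same factor fell and rose in the same samples. All 4 genes that fell more than 2-fold (NQO1, AKR1C1, AKR1C2 and FTL) were NRF2 targets. The count of higher NRF2 targets was 2 without the replicate block, and 2, 2 and 2 without replicate 1, 4 or 5.

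**Figure D4:**
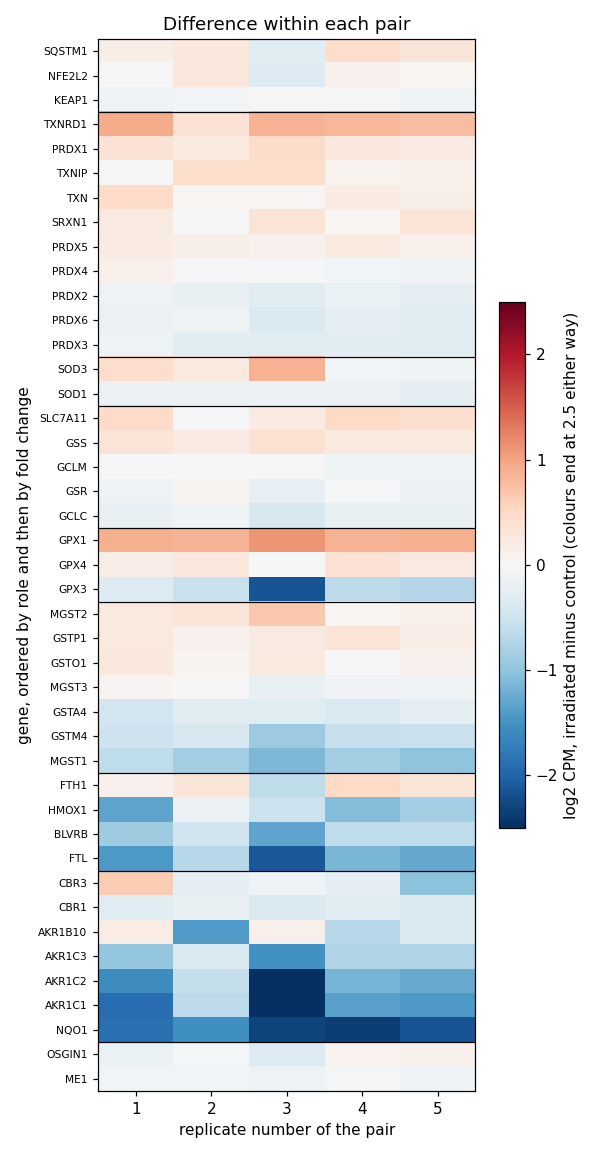
Difference in log2 CPM, irradiated minus control, within each of the 5 pairs (columns) for 43 genes (rows, grouped by role with lines between roles). Red is higher and blue lower in the irradiated sample, and colours end at 2.5 either way. Pair 3 holds the darkest blue for AKR1C1, AKR1C2, GPX3 and FTL, and pair 2 the palest for AKR1C1 and AKR1C3.

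The depth of the falls differed between pairs, and control 3 stood apart from the other controls. The 43 genes together held 1.07% of all counts in control 3, and between 0.765% and 0.865% in the other 4 controls, with 0.746% to 0.796% in irradiated samples. The 2 ferritin chains held 0.506% of the counts in control 3 against 0.212% to 0.301% in the other controls. In that sample 11 of the 43 genes lay far above the other 4 controls, AKR1C1, AKR1C2, AKR1C3, GPX3 and FTH1 among them. Controls also differed in the summed level of 10 cell cycle genes, at 252, 673, 232, 722 and 675 CPM in controls 1 to 5 against 92.1 to 153 CPM in irradiated samples, so that controls 1 and 3 had the lowest sums among controls. The part of that difference in these results was not tested. In pairs 2, 4 and 5 alone, 9 genes were higher and 18 lower.

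Promoters were searched for the core of the antioxidant response element, TGACNNNGC on either strand, in windows of 300 bases around RefSeq gene starts (GRCh38.p14). A window was held for 32 of the 43 genes. The core occurred in 9 of the 32 (28.1%) and in 16.1% of 27305 genes. Among NRF2 targets with a window it occurred in 5 of 16 (31.2%). The core was in the windows of 2 of 7 higher genes, 3 of 14 lower genes and 4 of 11 genes that did not pass. NQO1, AKR1C1, AKR1C2 and FTL, which fell more than 2-fold, had no match in their windows. Bases outside the windows were not searched. TXNRD1, the NRF2 target that rose most, is shown as an example. It had 3 matches, of which those near its first start are printed and the third lay 102 bases before another start. GSTO1, KEAP1 and ME1, which did not pass the test, had 2 matches each. The match is in capitals, and the sequence is read 5′ to 3′ on the gene's plus strand.
TXNRD1, chr12:104215670-104215698, first base of the core 99 bases before the start: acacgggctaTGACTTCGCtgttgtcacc
TXNRD1, chr12:104215761-104215789, core on the minus strand, 8 bases before the start: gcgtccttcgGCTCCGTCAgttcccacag
A match of these letters is a description of the window and no evidence of binding.

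Genes outside the set that belong to the same pathways were counted from fixed lists, to be read against the 23.9% higher and 22.7% lower among all genes. Of 16 partners and further targets of NRF2, 3 were higher (18.8%) and 7 lower (43.8%). The highest rise was that of the small MAF protein MAFF, at 20.5 ± 5.02 CPM in control against 43.8 ± 5.30 CPM in irradiated samples (SD, n = 5) (log2 fold change 1.12 ± 0.09 (SE), edgeR adjusted p = 8.91e-05). Of 18 tested glutathione and redox enzymes outside the set 3 were higher (16.7%) and 7 lower (38.9%). The glutaredoxin GLRX rose most (log2 fold change 0.41 ± 0.07 (SE), edgeR adjusted p = 0.00323) and the transferase GSTM2 fell most (1.41 to 5.17 CPM in control against 0.724 to 2.23 CPM in irradiated samples, edgeR adjusted p = 0.00129), both without passing when the replicate block was left out (edgeR adjusted p = 0.0664 and 0.0698). Of 12 genes of iron uptake, storage and export 3 were higher and 3 lower, close to the shares among all genes. STEAP3, the endosomal reductase that readies transferrin iron for export to the cytosol, rose without overlap (19.8 ± 2.82 CPM in control against 45.7 ± 5.77 CPM in irradiated samples (SD, n = 5), log2 fold change 1.20 ± 0.08 (SE), edgeR adjusted p = 4.28e-05), while the iron chaperone PCBP2 fell (log2 fold change -0.40 ± 0.07 (SE), edgeR adjusted p = 0.00219).

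Enzymes that make oxidants and stress pathways that touch the set moved more widely. Of 5 tested oxidant-producing enzymes 3 were higher and 1 lower, where 23.9% of all genes were higher and 22.7% lower. The lower one, NOX4, the oxidase of renal tubules, was lower in 4 of 5 pairs (log2 fold change -0.50 ± 0.15 (SE), edgeR adjusted p = 0.0278) and did not pass without replicate 1, 4 or 5 (adjusted p = 0.0844, 0.0989 and 0.103). All 7 NF-κB targets listed were higher, with TNFAIP3, a deubiquitinase that restrains NF-κB, at 8.77 ± 3.54 CPM in control against 108 ± 26.0 CPM in irradiated samples (SD, n = 5) (log2 fold change 3.67 ± 0.28 (SE), edgeR adjusted p = 6.70e-05). Of 6 p53 targets with antioxidant roles 5 were higher, with TIGAR, which steers glucose carbon to NADPH, at 14.6 ± 1.12 CPM in control against 37.3 ± 2.66 CPM in irradiated samples (SD, n = 5) (log2 fold change 1.36 ± 0.05 (SE), edgeR adjusted p = 8.61e-06). All 10 cell cycle genes were lower, MKI67 most of all (log2 fold change -2.57 ± 0.39 (SE), edgeR adjusted p = 0.00140). The lists were drawn up with earlier results of these data known and are no independent evidence of direction.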

How the data were processed

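Bulk poly-A RNA-seq was analysed for 5 irradiated and 5 control samples. The authors aligned reads to GRCh38 (hg38 in the submitters' processing notes) with STAR, and deposited raw counts, as whole numbers for each gene. Counting appeared to ignore strand: the 17 protein-coding genes lying wholly under exons of the opposite strand all had 0 counts, against 10.7% of 12742 free of such overlap, so reads in overlaps are taken as lost. Library kits named by the labels and the methods differ, and replicates are not stated to be separate cultures, so p-values measure the spread between these samples. Replicates 4 and 5 were closer to each other than any other 2 replicates in both groups. The chi-square of their count differences was 15.1 per gene in control and 8.5 in irradiated samples. Between other controls it was 57.1 to 213, and between other irradiated samples 40.4 to 88.5. The 5 replicates may therefore hold fewer than 5 independent ones, and the reason was not tested. Groups and replicate numbers came from sample titles.

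Counts were fitted in R 4.3.3 with edgeR 4.0.16 (TMM, glmQLFit, glmQLFTest, at least 200 counts over 10 samples, Benjamini-Hochberg threshold 0.05), with the replicate number as a block, following the study's own model. The pairing rests on these numbers. Deviations from group means correlated at 0.217 to 0.508 within pairs and at -0.354 to 0.317 between different numbers. Pair 2, at 0.217, lay below the highest value for different numbers, so the correlations do not establish its pairing. Each SE was obtained from the log2 fold change over the root of F. Coordinates, overlaps and shared windows came from GENCODE 44, and promoters from RefSeq. Alternatives were DESeq2 1.42.0, limma-voom (limma 3.58.1), other scalings and count minimums, no block, each replicate left out, and pairs 2, 4 and 5 alone.

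Values were given per sample for NFE2L2, KEAP1 and, in each role, up to 3 genes that passed with 1 direction in all pairs, by size of change, or the most abundant gene. FTH1 was added for the ferritin ratio. Of each further list the called genes with the largest rise and fall were named, and results of some of these genes are not reported here. The set and all lists were chosen with earlier results of these data known. SOD2 was not analysed here.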

Additional observations from a re-analysis of the deposited data

Results flagged for a closer look

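In 19 of 86 groups of 5 values, 1 sample lay farther from the other 4 than Dixon's 95% limit allows, where chance gives 4.3. Control 3 accounted for 11 of the 19, all of them high. It was at 163 CPM for AKR1C1 (other controls 66.7 to 93.8), 94.6 CPM for AKR1C2 (30.7 to 43.5) and 147 CPM for AKR1C3 (94.8 to 101). Among haem and iron genes it was at 52.3 CPM for BLVRB (32.7 to 35.5) and 3374 CPM for FTH1 (1286 to 1709). For glutathione peroxidases and transferases it was at 96.9 CPM for GPX3 (27.7 to 37.7), 221 CPM for GPX4 (147 to 168), 26.8 CPM for GSTM4 (17.9 to 20.0) and 145 CPM for MGST3 (121 to 127). It was at 128 CPM for NFE2L2 (90.4 to 99.1) and 410.5 CPM for PRDX5 (285 to 314). These 11 values come from 1 library and are not independent of each other. Control 2 was low for SOD1, at 140.3 CPM (156 to 161).

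Among irradiated samples, number 2 was high for AKR1C1 at 59.9 CPM (17.8 to 26.3), for AKR1C2 at 28.9 CPM (11.3 to 13.8) and for CBR3 at 0.478 CPM (0.305 to 0.353), and low for AKR1B10 at 0.194 CPM (0.588 to 0.696). AKR1C1 and AKR1C2 have near-identical coding sequences, so their flags may not be separate, which was not tested. Irradiated 3 was high for GPX1 at 514 CPM (445 to 455) and for GSTO1 at 72.3 CPM (52.7 to 57.7). Irradiated 4 was low for GSTA4 at 9.78 CPM (10.8 to 11.1).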

How the results depend on the processing

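Of 28 genes of the set that passed the test, 18 passed under all 13 alternatives (5 higher, 13 lower), and none of the 28 changed direction under any. Over 43 genes and 13 alternatives, 496 of 559 values kept their direction and side of the threshold, 43 lost and 12 gained significance, and 8 changed sign. The number of higher genes was 11, and 6 with scaling by library size only or without the replicate block. Leaving out 1 replicate gave 6 to 12 higher genes. The number of higher NRF2 targets was 4, and 2 without the replicate block, with 2 to 6 when 1 replicate was left out. The replicate block is printed beside each gene whose call it changed. The sign changes were all in genes that did not pass. The log2 fold change of NFE2L2 was -0.017 with upper-quartile scaling, -0.060 with library size only and -0.019 with a minimum of 1 count, and ran from -0.039 to 0.11 when 1 replicate was left out. That of SOD3 was -0.00046 in pairs 2, 4 and 5. That of OSGIN1 was 0.042 in pairs 2, 4 and 5, and ran from -0.11 to 0.0073 when 1 replicate was left out. The log2 FTH1 to FTL difference of 1.46 had p = 0.0625 in an exact sign-flip test of 5 pairs, the smallest that test allows. The cause of these changes was not tested, other than that fewer samples entered some fits. Scaling by library size only gave 3609 higher and 5894 lower genes over all genes, against 4550 and 4307. Planned ratios of SOD2 to SOD1 and to NQO1 were not run. Counting error was not set against the spread between replicates for each gene. AKR1B10 and CBR3 had the fewest counts over the 10 samples, 660 and 402.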

Other observations

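Some enzymes of the lists around the set moved further than most of its members and were chosen with their values already known. Catalase (CAT), which breaks down hydrogen peroxide in peroxisomes, was at 159, 113, 118, 122 and 135 CPM in control samples 1 to 5 and 79.8, 78.6, 63.5, 61.7 and 70.7 CPM in irradiated samples 1 to 5. The groups did not overlap (log2 fold change -0.87 ± 0.07 (SE), edgeR adjusted p = 9.73e-05). TKT, the transketolase of the pentose phosphate pathway, was at 1051, 920.0, 1258, 1118 and 1109 CPM in control and 463, 588, 406, 468 and 492 CPM in irradiated samples (log2 fold change -1.18 ± 0.12 (SE), edgeR adjusted p = 2.56e-04). It fell in all 5 pairs.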
